A study of Mus musculus with 89 samples.

Results

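The lowest dose of carboxylated copper oxide was compared with vehicle in mouse lung. The CuO COOH samples, 3 of the 89 arrayed in the series, came from mice given 2.5 μg/mouse in PBS on 4 consecutive days, and they were set against the 7 samples from mice that received PBS without nanomaterial. All of these mice were female BALB/c of 6 to 8 weeks that had been sensitised to ovalbumin (OVA) with Alum on days 1 and 10, so the controls were sensitised animals that met no allergen in the airway. The members of both groups were chosen by their sample labels, which give the nanomaterial, the daily dose and the challenge, and no measured value entered the choice. Lung tissue was taken 24 h after the last oropharyngeal aspiration from lungs that had been lavaged, and each array sample was a pool of 2 RNA samples with an integrity number above 8. The dose is given in μg in the sample descriptions and in mg in the treatment text of the labels, and μg is used here. The rest of the series held core CuO and its COOH, NH3 and PEG forms at 2.5, 10 and 40 μg/mouse with PBS or OVA. Nothing in the labels ties a pool to particular animals, so the p-values rest on the spread between pools. That spread was estimated over all 26 groups of the series in one fit, and not from these 10 samples alone.

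Copper oxide particles are taken up mainly by phagocytes, in whose acidic lysosomes they release copper ions. Free copper is bound by metallothioneins, and oxidative injury induces heme oxygenase. Injured epithelium and macrophages send out chemokines that draw monocytes and neutrophils from the blood, and acute phase proteins such as serum amyloid A are made in the inflamed lung itself. Repair and the local renewal of macrophages involve cell division, which is seldom seen in the resting adult lung.

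The 10 samples lay on 6 slides, and slides 1, 2 and 3 each carried 1 exposed sample and 1 of controls 1 to 3. No array held an exposed sample together with a control. Exposed replicate 1 was labelled with Cy5, replicates 2 and 3 with Cy3, and replicate 2 was the only sample used on its array. A fit with dye and array as terms, which follows the batches named for this series, therefore learned nothing from replicate 2 and compared replicates 1 and 3 with the controls through the other samples that shared their arrays. Fold changes below come from that fit unless slide terms are named. Slide terms (dye, slide and array position) used all 3 exposed samples, and the levels given sample by sample are log2 intensities from which dye, slide and position effects were removed. Between 53.3% and 68.5% of spots were well above background in the 10 samples. Lung markers were high in all of them, with the mean of 8 alveolar type 2 genes between 14.37 and 14.86 and of 6 club cell genes between 13.29 and 14.58 on the log2 scale. In such bulk tissue fewer cells of a type and less RNA per cell cannot be told apart.

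With array terms, transcripts of dividing cells, of chemokines for monocytes and neutrophils, of serum amyloid A and of a few macrophage and metal response genes were called higher after CuO COOH at 2.5 μg/mouse, while almost nothing was called lower. Slide terms also called all 14 mitotic genes that array terms called, and Ccl9, Ccl17, Hal, Wfdc17 and Slc26a4. They called none of Ccl2, Ccl7, Cxcl1, Cxcl5, Saa1, Saa3, Spp1, Lgals3, Cd14, Clec4d, Hmox1, Mt1 and Mt2, whose adjusted p there lay between 0.0616 and 0.951. Differentially expressed genes (DEGs) had a Benjamini-Hochberg adjusted p under 0.05 together with a log2 fold change of more than 0.58 in size. Of 22911 genes, 82 were DEGs, or 0.358%. Of these 80 were higher after exposure (0.349%) and 2 lower (0.00873%). The median log2 fold change over all genes was -0.01. At an unadjusted p below 0.05 there were 1509 genes. The 82 rested on both samples that entered the fit: limma gave 0 DEGs without exposed replicate 1 (1149 genes at an unadjusted p below 0.05) and 2 without replicate 3. The count also fell to 13 without control 3 and rose to 131 without control 1. In 61 of the 82 DEGs the 3 exposed samples did not overlap the 7 controls, against 6% of all genes that lay above the controls and 4.97% that lay below them. The 82 were chosen by a fit on exposed replicates 1 and 3 and the same controls. Their separation thus follows in part from that choice and is no separate test.

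**Figure D1:**
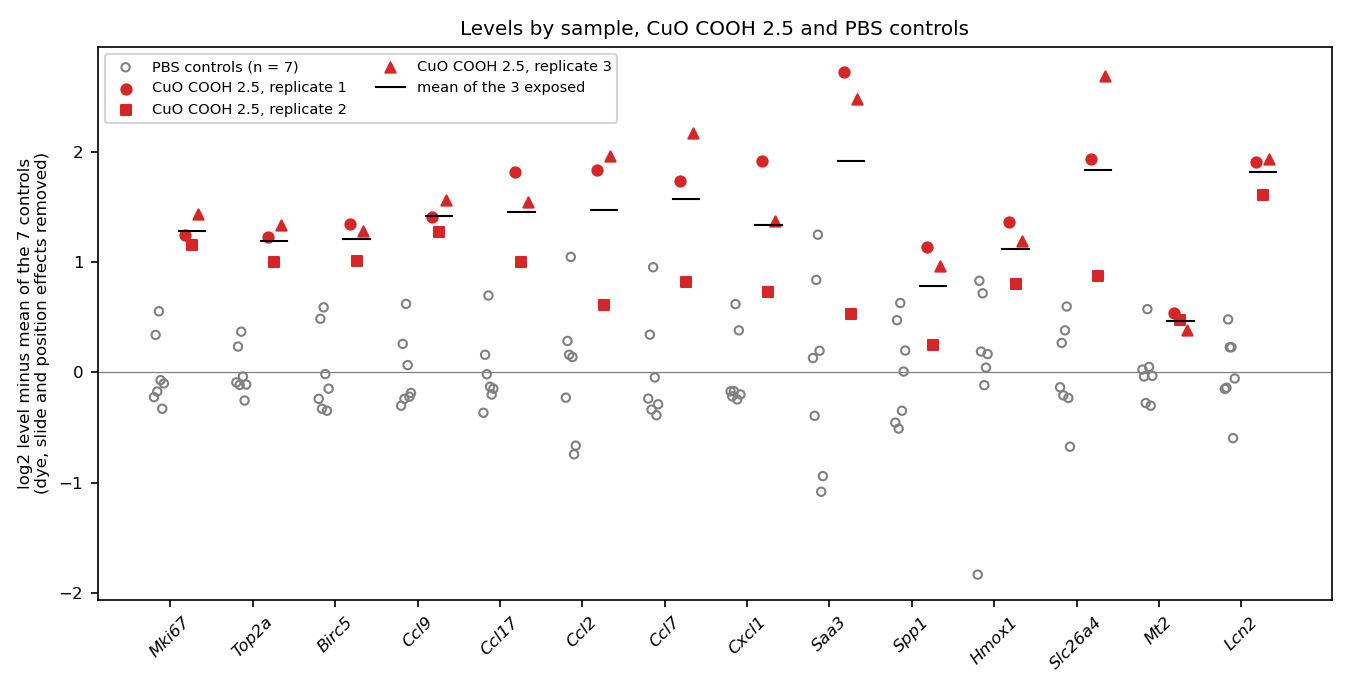
Log2 levels of 14 genes (dye, slide and position effects removed) relative to the mean of the 7 PBS controls, with controls as open circles, the exposed replicates 1, 2 and 3 as red circle, square and triangle, and a line at the mean of the 3 exposed samples. The cell division genes at the left separate all 3 exposed samples from the controls, whereas for Ccl2, Saa3, Spp1 and Mt2 at least 1 control reaches above the lowest exposed sample.

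Transcripts of the mitotic cell cycle formed the largest group. Of 27 such genes, 14 were DEGs, all higher, and the median log2 fold change of the list was 1.22. With slide terms 19 of the 27 were called and the median was 0.93. In 26 of the 27 all 3 exposed samples lay above all 7 controls, against 6% of all genes. The list held 0 DEGs without exposed replicate 1 or 3 in the fit with array terms, and 5 without control 3. Controls 2 and 4 had the highest list means among the controls (7.77 and 7.85, others 7.28 to 7.50), while the exposed samples had 8.40, 8.21 and 8.45. Without these 2 controls, a setting chosen after seeing the data, again 14 were called.

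Mki67, which encodes the proliferation antigen Ki-67, read 10.37, 10.28 and 10.56 in exposed replicates 1, 2 and 3 and 8.79 to 9.68 (median 9.02) in the controls. Its log2 fold change was 1.71 (SE 0.24, adjusted p = 0.0028), and 1.28 (SE 0.19, adjusted p = 7.32e-05) with slide terms. The lowest exposed sample was thus well above the highest control. Top2a, the topoisomerase that untangles replicated chromosomes, read 8.68, 8.45 and 8.79 against controls of 7.19 to 7.82 (median 7.35), and its fold change was 1.59 (SE 0.24, adjusted p = 0.00497). Birc5, or survivin, a member of the chromosomal passenger complex, read 9.09, 8.76 and 9.03 against 7.4 to 8.34 (median 7.6), with a fold change of 1.74 (SE 0.28, adjusted p = 0.00615). Replicate 2 was the lowest exposed sample for all of these 3 genes and still lay above every control.

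The other members covered several steps of division. The kinetochore motor Cenpe rose by 1.83 (SE 0.29, adjusted p = 0.00615) and the kinetochore protein Cenpf by 1.22. Cyclins Ccna2 and Ccnb2, which drive entry into mitosis, rose by 1.58 and 1.36, and Ube2c, the ubiquitin-conjugating enzyme that works with the anaphase-promoting complex to remove cyclins, by 1.63. Aurka, Tpx2, Nusap1 and Prc1, all proteins of the spindle, rose by 1.4, 1.15, 1.2 and 1.06. Rrm2 and Tk1, which supply deoxynucleotides, rose by 1.8 and 1.35. Kif20a, Cdk1, Plk1 and Cdc20 had log2 fold changes of 1.31, 1.27, 1.24 and 1.22 with adjusted p of 0.0949, 0.0907, 0.114 and 0.0909, and passed with slide terms. Cdkn1a, the cell cycle inhibitor p21, had 0.31 (adjusted p = 0.947).

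Many genes of the division programme carry in their start regions the cell cycle homology region and CCAAT boxes, which are read by the DREAM and MuvB complexes and by NF-Y. The 250 bases before the start of 3 DEGs that rose together are shown with these letters in capitals (TTTGAA and CCAAT on either strand, the reverse reading TTCAAA and ATTGG). Sequences are from RefSeq on build GRCm38.p6, written 5′ to 3′ on the strand of the gene: Ube2c at chr2:164769679-164769928 (plus), Top2a at chr11:99024190-99024439 (minus) and Mki67 at chr7:135716380-135716629 (minus).
Ube2c: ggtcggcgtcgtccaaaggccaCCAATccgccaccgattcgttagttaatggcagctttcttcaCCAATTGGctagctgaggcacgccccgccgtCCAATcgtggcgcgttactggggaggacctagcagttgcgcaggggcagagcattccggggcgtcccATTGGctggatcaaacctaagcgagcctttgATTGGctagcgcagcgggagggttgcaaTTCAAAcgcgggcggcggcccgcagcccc
Top2a: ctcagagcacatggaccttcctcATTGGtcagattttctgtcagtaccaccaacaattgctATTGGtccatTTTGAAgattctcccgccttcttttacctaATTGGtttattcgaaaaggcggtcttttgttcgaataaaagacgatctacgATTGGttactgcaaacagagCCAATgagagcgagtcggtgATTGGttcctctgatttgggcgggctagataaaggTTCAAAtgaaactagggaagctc
Mki67: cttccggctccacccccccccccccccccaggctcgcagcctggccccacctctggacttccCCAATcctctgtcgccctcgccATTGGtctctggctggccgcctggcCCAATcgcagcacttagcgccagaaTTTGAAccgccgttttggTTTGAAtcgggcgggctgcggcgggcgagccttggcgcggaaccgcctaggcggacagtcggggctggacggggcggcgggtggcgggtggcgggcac
Ube2c held 1 TTTGAA at -29 and 6 CCAAT, of which a pair on opposite strands shared letters. Top2a held 2 TTTGAA and 6 CCAAT, and Mki67 held 2 and 3. Of the 14 DEGs of the list, 12 had a promoter in the RefSeq table, which runs from 250 bases before to 50 after the start. TTTGAA was found in 7 of the 12 and in 17.9% of all 32851 promoters, and CCAAT in 9 of the 12 and in 37.4%. Over the whole list the counts were 13 and 18 of 23 promoters. No TTTGAA overlapped a CCAAT, and a match is a description of these letters and not a bound site.

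Other DEGs outside the list were named after their values were seen. Cdca5, Ncapg, Kif22, Ckap2, Cenpn, Cdca3, Spc25, Cdca8, Tacc3 and Racgap1, which act in cohesion, condensation or the spindle, rose by 1.15 to 1.78. The helicase and origin factors Mcm10, Gins2, Cdt1, Mcm6 and Mcm3 rose by 0.76 to 1.41. The histone genes H1f5, H2ac11, H2ac23 and H2ac22 rose by 1.44 to 1.88, but the H2a copies are nearly identical in sequence, so the array may not separate them.

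Chemokines gave the largest fold changes beside the serum amyloids, yet with more spread. Of 8 genes for monocyte recruitment 2 were DEGs (list median 2.23), namely Ccl2 and Ccl7, which both bind the receptor CCR2 on monocytes. Ccl2 read 10.46, 9.24 and 10.59 in the exposed samples and 7.88 to 9.67 (median 8.77) in the controls. Its log2 fold change was 3.54 (SE 0.71, adjusted p = 0.0281), and 1.47 (SE 0.47, adjusted p = 0.181) with slide terms. Replicate 2 lay below control 4, the highest control, so the groups overlapped. Ccl7 read 8.44, 7.53 and 8.88 against 6.32 to 7.66 (median 6.47), and its fold change was 3.77 (SE 0.72, adjusted p = 0.0192) and 1.58 (SE 0.51, adjusted p = 0.182) with slide terms. Here too control 4 lay above replicate 2. Ccl8 and Ccl12, further ligands of this group, had 3.56 (adjusted p = 0.0794) and 2.25 (adjusted p = 0.0756). The median of the list with slide terms was 0.86, with 0 of 8 called by limma, and 5 of 8 were called with the array as a random block.

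Of 8 neutrophil chemokines and growth factors 2 were DEGs (list median 0.98), both of them ligands of CXCR2. With slide terms the list median was 0.25 and 1 of the 8 was called, which was neither Cxcl1 nor Cxcl5. Cxcl5 read 8.21, 7.01 and 8.54 against 5.53 to 7.41 (median 5.93), with a fold change of 3.65 (SE 0.73, adjusted p = 0.0281). Cxcl1 read 9.72, 8.53 and 9.18 against 7.56 to 8.42 (median 7.63), with a fold change of 2.78 (SE 0.58, adjusted p = 0.0333). For Cxcl1 all exposed samples lay above all controls, and for Cxcl5 control 4 exceeded replicate 2. Cxcl2 and Cxcl3 had 1.09 (adjusted p = 0.406) and 1.2 (adjusted p = 0.77) and were well above background in 2 of the 3 exposed samples and 1 of the 7 controls. The mean of the 8 genes was 7.21, 6.78 and 7.15 in the exposed samples, and control 4, at 6.93, stood apart from the other controls at 6.42 to 6.60.

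The start region of Cxcl1, 1 of the few promoters with the NF-kB letters, is shown because this gene was the chemokine for neutrophils that separated the groups. The region spans chr5:90890995-90891244 of GRCm38.p6 (plus strand, RefSeq). The capitals, at -71, mark these letters, which were searched on both strands and found in 0.0883% of 32851 promoters.
Cxcl1: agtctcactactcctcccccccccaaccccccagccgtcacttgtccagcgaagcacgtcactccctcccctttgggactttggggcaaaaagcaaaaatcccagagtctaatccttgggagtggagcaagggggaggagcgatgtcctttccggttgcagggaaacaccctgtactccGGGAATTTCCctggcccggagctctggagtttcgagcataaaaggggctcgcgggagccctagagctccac

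For Ccl9, and for Ccl17 of the eotaxins and Th2 chemokines (1 of 6 called), the groups were apart. Ccl9, which attracts dendritic cells and other CCR1-bearing cells, read 11.15, 11.02 and 11.31 against 9.44 to 10.37 (median 9.56). Its fold change was 2.24 (SE 0.33, adjusted p = 0.00486) and 1.42 (SE 0.25, adjusted p = 0.000788) with slide terms. Ccl17, a ligand of CCR4 on Th2 cells, read 10.44, 9.62 and 10.16 against 8.25 to 9.32 (median 8.49), with 2.05 (SE 0.45, adjusted p = 0.0472) and 1.46 (SE 0.26, adjusted p = 0.000811). For both genes every exposed sample was above every control. Ccl24 and Ccl11, the eotaxins, had 1.85 (adjusted p = 0.366) and 1.01 (adjusted p = 0.505).

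Neutrophil transcripts themselves did not pass the test. Of 6 marker genes 0 were called by limma (0 at an unadjusted p below 0.05), and the mean of the markers was 10.94, 11.16 and 11.35 in the exposed samples against 11.16 to 11.60 in the controls. S100a9, a subunit of calprotectin, read 13.34, 13.91 and 14.15 against 14.11 to 14.92 (median 14.33), so that replicates 1 and 2 lay below all controls and replicate 3 did not. Of the longer neutrophil list of 15 genes, 1 was a DEG: the C-type lectin Clec4d with 1.55 (SE 0.34, adjusted p = 0.045), whose levels of 9.23, 9.31 and 9.44 overlapped controls at 8.42 to 9.46 (median 8.87). Of 5 monocyte markers 0 were called by limma (3 at an unadjusted p below 0.05), with Vcan at 0.66 (adjusted p = 0.58) and F13a1 at 0.70 (adjusted p = 0.326). With the array as a random block 1 of these 5 was called, and 0 of the 6 neutrophil markers.

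Acute phase genes were led by serum amyloid A. Of 18 genes 2 were DEGs (list median 0.85). Saa3, the amyloid made by macrophages and epithelium, read 13.83, 11.63 and 13.59 against 10.02 to 12.36 (median 11.23). The fold change was 4.31 (SE 0.91, adjusted p = 0.0367), the largest of all DEGs, and 1.92 (SE 0.61, adjusted p = 0.176) with slide terms. Replicates 1 and 3 lay above all controls, but replicate 2 lay among them. Saa1, which is made in liver and at inflamed sites and is close in sequence to Saa2, read 10.94, 9.0 and 10.83 against 8.12 to 9.35 (median 8.46), with 3.9 (SE 0.70, adjusted p = 0.0145). Replicate 2 lay below control 4, which at 9.35 stood apart from the other controls at 8.12 to 8.53. Orm1 and Orm2, the orosomucoids, had 2.6 (adjusted p = 0.217) and 2.23 (adjusted p = 0.326).

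Lipocalin-2, encoded by Lcn2, binds bacterial siderophores and is released by neutrophils and epithelium. It read 14.09, 13.79 and 14.12 against 11.58 to 12.66 (median 12.12), the exposed samples being more than 1 unit above the highest control. Its log2 fold change of 2.25 (SE 0.58, adjusted p = 0.114) missed the threshold with array terms, whereas it was 1.82 (SE 0.33, adjusted p = 0.000868) with slide terms. Of 10 complement genes 0 were called by limma with array terms (7 at an unadjusted p below 0.05, list median 1.09), and 2 with slide terms. In 8 of the 10 the exposed samples lay above all controls, against 6% of all genes. C3, the central component, read 15.54, 15.47 and 15.48 against 14.2 to 14.73 (median 14.48), with a fold change of 1.34 (SE 0.33, adjusted p = 0.0949) and 1.0 (SE 0.21, adjusted p = 0.00586) with slide terms. Cfb, factor B of the alternative pathway, had 1.53 (adjusted p = 0.333) and 1.06 (SE 0.25, adjusted p = 0.0242). The serine protease gene C1ra, named after its values were seen, rose by 0.73 (SE 0.16, adjusted p = 0.0486).

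Macrophage genes were called in small number. Of 19 genes for inflammatory macrophages and lysosomes 3 were DEGs (list median 0.87). Spp1, or osteopontin, a phosphoprotein of activated macrophages and wounds, read 11.67, 10.79 and 11.5 against 10.03 to 11.17 (median 10.54), with 2.26 (SE 0.38, adjusted p = 0.00935) and 0.78 (SE 0.34, adjusted p = 0.477) with slide terms. Replicate 2 lay below controls 2 and 4. Cd14, the co-receptor for lipopolysaccharide, read 10.94, 10.61 and 10.8 against 9.76 to 10.25 (median 9.97) with 1.64 (SE 0.33, adjusted p = 0.0299), and its groups did not overlap. Lgals3, the carbohydrate-binding galectin-3, had 1.04 (SE 0.23, adjusted p = 0.0472), and replicate 2 at 13.29 exceeded the highest control at 13.27 by less than the spread between controls. Arg1, Mmp12 and Ctsk had 2.11, 1.52 and 1.13 (adjusted p of 0.31, 0.553 and 0.106). The related genes Lgals1, S100a4, Cd44, Havcr2 and Ripk3, named after their values were seen, rose by 0.72 to 1.32. Of 7 alveolar macrophage markers 0 were called by limma in any of the 3 fits (2 at an unadjusted p below 0.05 with array terms), with Chil3 at 2.12 (adjusted p = 0.38) and Marco at -0.59 (adjusted p = 1).

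Of the metal and oxidant response lists 3 genes were called. Of 23 genes of copper handling the metallothioneins Mt1 and Mt2 were DEGs, and the list median was 0.02. Mt2 read 12.03, 11.97 and 11.88 against 11.19 to 12.07 (median 11.46), with 1.7 (SE 0.35, adjusted p = 0.0348). Mt1 read 10.38, 10.11 and 9.93 against 9.71 to 10.39 (median 9.99), with 1.06 (SE 0.22, adjusted p = 0.0299). For Mt2 the exposed samples lay above all controls but control 4, which had 12.07 where the others had 11.19 to 11.54. For Mt1 replicate 3 lay below 5 of the 7 controls. With slide terms Mt2 had 0.47 (SE 0.31, adjusted p = 0.776) and Mt1 0.15 (SE 0.21, adjusted p = 0.951). Copper transporters and chaperones, among them Slc31a1, Atp7a, Atp7b, Atox1 and Ccs, had log2 fold changes between -0.14 and 0.14.

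The promoter of Mt2 is given because this metallothionein had the larger fold change, with the core of the metal response element bound by MTF1 in capitals (TGCACNC or TGCGCNC on either strand). It spans chr8:94172368-94172617 of GRCm38.p6 (plus strand, RefSeq). The stretch held 2 TGCACNC and 1 TGCGCNC without overlap, and 25.7% of all promoters held at least 1 of these.
Mt2: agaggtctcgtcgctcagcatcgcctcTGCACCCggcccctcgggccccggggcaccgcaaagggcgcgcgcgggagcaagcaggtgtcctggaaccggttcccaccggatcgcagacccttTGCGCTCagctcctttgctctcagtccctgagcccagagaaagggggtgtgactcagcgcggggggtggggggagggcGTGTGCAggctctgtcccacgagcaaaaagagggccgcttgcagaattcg
Of 19 targets of NRF2, the transcription factor that answers oxidants, 1 was a DEG. In 6 of the 19 the exposed samples lay above all controls, against 6% of all genes. Hmox1, heme oxygenase, read 11.25, 10.68 and 11.07 against 8.04 to 10.71 (median 10.04), and its log2 fold change was 2.56 (SE 0.35, adjusted p = 0.0028). Control 1 stood apart at 8.04, where the next control had 9.76. The fold change was 2.38 (adjusted p = 0.00745) without it, and 1.12 (SE 0.38, adjusted p = 0.226) with slide terms. Replicate 2 lay below control 2. Nqo1, the quinone reductase that NRF2 induces, had -0.21 (adjusted p = 1), Slc7a11 0.93 (adjusted p = 0.261) and Gstm1 -0.83 (adjusted p = 0.309).

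**Figure D2:**
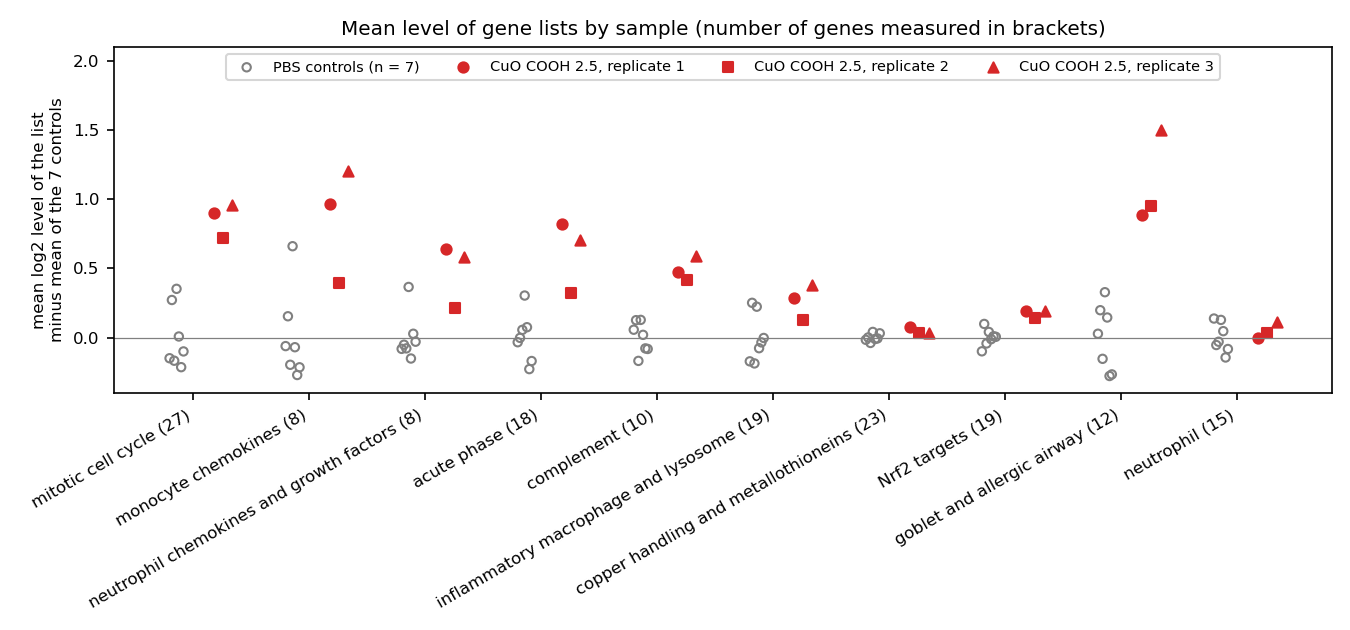
Mean log2 level of 10 gene lists in each sample relative to the mean of the 7 PBS controls (open circles), with the 3 exposed replicates in red. The mitotic, complement and goblet lists separate all exposed samples from the controls. So do the acute phase and Nrf2 lists, where replicate 2 lies only narrowly above the highest control. The monocyte chemokine mean of replicate 2 lies below that of control 4, and the copper and neutrophil lists overlap the controls.

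Slc26a4, Hal and Wfdc17 were among the 12 largest rises. Slc26a4, the anion exchanger pendrin, which is induced in airway epithelium by cytokines, read 10.34, 9.27 and 11.1 against 7.72 to 9.0 (median 8.26). Its fold change was 3.31 (SE 0.59, adjusted p = 0.0145) and 1.84 (SE 0.40, adjusted p = 0.00789) with slide terms, and the groups did not overlap. Hal, histidine ammonia-lyase, read 9.17, 9.02 and 9.25 against 7.31 to 8.22 (median 7.55), with 2.17 (SE 0.43, adjusted p = 0.0279). Wfdc17, a whey acidic protein of activated macrophages, read 11.05, 10.73 and 10.82 against 9.23 to 10.43 (median 9.64), with 2.18 (SE 0.34, adjusted p = 0.00513). All exposed samples lay above all controls for both.

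Clca1, a secreted regulator of mucus and a goblet cell marker, had the largest difference in level of any gene described here but a wide spread. It read 10.74, 11.81 and 13.56 in the exposed samples and 6.1 to 8.32 (median 7.12) in the controls. The fold change was 6.34 (SE 1.94, adjusted p = 0.271) with array terms, below the threshold, and 4.91 (SE 1.01, adjusted p = 0.00485) with slide terms. Agr2, the disulfide isomerase needed for mucin folding, read 8.95, 8.8 and 9.98 against 7.02 to 8.14 (median 7.5) with 2.41 (adjusted p = 0.304) and 1.77 (SE 0.45, adjusted p = 0.0406) with slide terms. Muc5b, a mucin, read 11.62, 11.9 and 11.75 against 9.51 to 10.71 (median 10.39), with 1.58 (adjusted p = 0.753) and 1.41 (SE 0.40, adjusted p = 0.0964) with slide terms. Of the 12 goblet and allergic airway genes 0 were called by limma with array terms (5 at an unadjusted p below 0.05) and 2 with slide terms. In 8 of them the exposed samples lay above all controls, against 6% of all genes. The Th2 cytokines Il4, Il5 and Il13 of that list had 0.23, -0.01 and -0.02.

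Only Pllp and Inpp5k were called lower with array terms, and 0 genes were called lower without control 3. Pllp, plasmolipin, a membrane protein of epithelia and myelin, read 10.06, 10.21 and 9.87 against 10.37 to 10.84 (median 10.42). The log2 fold change was -1.05 (SE 0.20, adjusted p = 0.0192), and -0.45 (SE 0.15, adjusted p = 0.221) with slide terms, and all exposed samples lay below all controls. Inpp5k, an inositol phosphatase, read 9.89, 10.22 and 9.93 against 9.96 to 10.56 (median 10.31), with -0.80 (SE 0.18, adjusted p = 0.0478), and the groups overlapped. Prdm8, a histone methyltransferase relative, read 8.13, 7.98 and 8.43 against 8.99 to 9.4 (median 9.14). It had -1.16 (SE 0.28, adjusted p = 0.0807) with array terms and -1.0 (SE 0.17, adjusted p = 0.000588) with slide terms, and all exposed samples lay at least 0.5 below the controls.

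Markers of the lung's resident cells were seldom called. With array terms 0 of the markers of alveolar type 1 and type 2, club, ciliated, endothelial, fibroblast, smooth muscle, T, B and NK cells were called by limma, and list medians lay between -0.53 and 0.39. At an unadjusted p below 0.05 there were 4 of 5 alveolar type 1, 3 of 7 endothelial and 3 of 6 fibroblast genes, with 1 each of the alveolar type 2, club, ciliated and smooth muscle genes and 0 of the T, B and NK cell genes. With slide terms Sftpd, a surfactant collectin, was called with 0.77 (SE 0.19, adjusted p = 0.0302) and Foxj1, the ciliogenesis factor, with 0.67 (SE 0.17, adjusted p = 0.0346). Sftpd read 16.65, 17.23 and 16.48 against 15.93 to 16.09 (median 16.05), and Foxj1 read 10.45, 10.5 and 10.53 against 9.57 to 10.02 (median 9.87). Cldn5 of endothelium had -0.84 (adjusted p = 0.315) and Ager of alveolar type 1 cells -0.66 (adjusted p = 0.658). Of tissue neighbours, the heart and striated muscle list averaged 8.70, 9.34 and 8.92 in the exposed samples and 8.94 to 9.44 in the controls apart from control 6 at 8.08. The liver list averaged 6.70 to 6.82 in the exposed samples and 6.74 to 7.22 in the controls. The part of these values in the results was not tested.

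How far the rises held depended on the terms and on replicate 2. With slide terms, 93 genes were called (0.406%), of which 91 were higher (0.397%). With the array as a random block, 311 were called (1.36%), of which 255 were higher (1.11%). The 82 DEGs shared 46 genes with the first and 58 with the second, and 43 genes were called in all 3. Among the 43 were Mki67, Top2a, Birc5, Ccl9, Ccl17, Hal, Wfdc17 and Slc26a4. All 82 fold changes were larger with array terms than with slide terms, with a median size of 1.34 against 0.81. The 82 were chosen by their values with array terms, a choice that favours larger values in that fit. In 76 of the 80 genes that rose, replicate 2 was the lowest of the 3 exposed samples, and in 20 it was below the highest control. Over all 22911 genes it was the lowest in 7702. The 80 were chosen by a fit that learned from replicates 1 and 3 alone, so a lower replicate 2 follows in part from the choice. Leaving out replicate 2 in the fit with slide terms, a setting chosen after seeing the data, gave 127 DEGs.

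**Figure D3:**
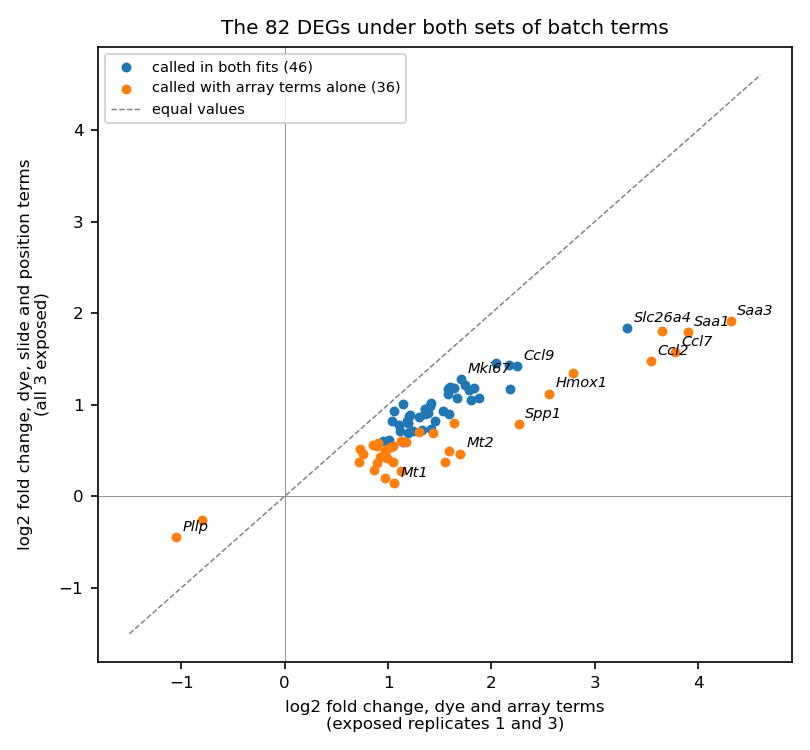
Log2 fold change of the 82 DEGs with dye and array terms (horizontal) against dye, slide and position terms (vertical), in blue where both fits called the gene (46) and in orange where the array terms alone did (36). All points lie nearer to 0 on the vertical axis than on the dashed line of equal values, most of all Saa3, Saa1, Ccl7 and Ccl2. The genes were chosen by the fit on the horizontal axis, which favours larger values there.

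Within a slide the exposed sample can be set directly against its control, with no model beyond normalisation. Exposed and control shared the dye on slides 1 and 2 but not on slide 3. The difference was positive in all 80 higher genes on slides 1 and 3 and in 76 on slide 2. These genes were chosen by a fit on exposed replicates 1 and 3 and the same controls. Their signs on slides 1 and 3 were thus largely set by that choice and are no separate test. The median difference of these 80 genes was 0.98 on slide 1, 0.41 on slide 2 and 1.14 on slide 3. For Mki67 the 3 differences were 1.53, 0.79 and 1.88, for Ccl9 1.63, 1.09 and 1.61 and for Saa3 3.23, 0.86 and 1.83. Hmox1 differed by 3.15, -0.15 and 0.66 and Spp1 by 1.35, -0.01 and 1.5, so that for these genes slide 2 showed next to nothing or the opposite sign. Dye effects estimated over all 89 samples were then removed, and these 3 pairs were fitted with the slide as a block. This fit called 0 genes in limma, with 2026 at an unadjusted p below 0.05.

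**Figure D4:**
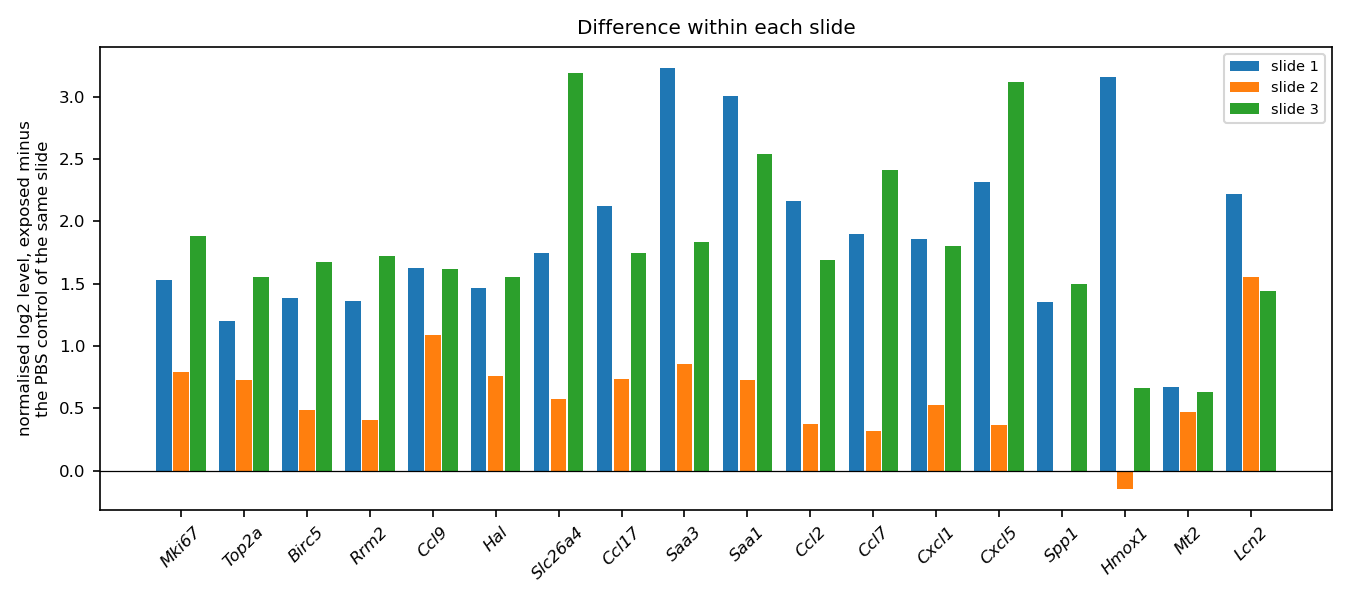
Normalised log2 level of the exposed sample minus the PBS control of the same slide for 18 genes, with slides 1, 2 and 3 in blue, orange and green. Slide 2 has the lowest value for every gene but Lcn2, and for Spp1 and Hmox1 it is at or below 0.

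The same dose of the other surfaces was compared directly in 3 pairs, with slide terms and p-values adjusted over all genes within each pair. The doses were equal by mass of material, while the coatings lower the share of copper, so the copper given was not equal. Against core CuO, 48 genes were called (0.21%), 13 higher after CuO COOH (0.0567%) and 35 lower (0.153%). Against CuO NH3, 0 were called by limma (1088 at an unadjusted p below 0.05), although 1021 were called with the array as a random block. Against CuO PEG, 9 were called (0.0393%), 8 higher (0.0349%) and 1 lower (0.00436%). CuO NH3 and CuO PEG lay on slides 4 to 6, so that these pairs were joined through the controls on all 6 slides. The pair with core CuO lay on the same slides, but gave 2 calls without exposed replicate 2, 19 without replicate 1, 22 without CuO replicate 2 or 3, and 0 with array terms (1108 at an unadjusted p below 0.05).

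CuO COOH stood below core CuO in acute phase genes, where 5 of 18 were called lower and the list median was -0.69. Orm1 had a mean of 7.7 ± 0.37 (SD, n = 3) after CuO COOH and 10.38 ± 0.30 after CuO, a difference of -2.68 (95% interval -3.51 to -1.84, adjusted p = 0.000342). Saa1 differed by -2.25 (95% interval -3.17 to -1.32, adjusted p = 0.0132) and Saa3 by -2.32 (95% interval -3.49 to -1.15, adjusted p = 0.0498). Acod1, the itaconate-forming enzyme of activated macrophages, had 6.86 ± 0.23 after CuO COOH, 9.19 ± 0.49 after CuO and 6.76 ± 0.61 in the 7 controls, and the difference between the materials was -2.33 (95% interval -3.43 to -1.22, adjusted p = 0.0339). Mt2 differed by -1.28 (95% interval -1.88 to -0.69, adjusted p = 0.0296). Higher after CuO COOH were Cyp2a5 and Cyp2a4, xenobiotic oxidases of airway epithelium that are close in sequence, with 1.78 (95% interval 0.89 to 2.67, adjusted p = 0.0479) and 1.68, and Jchain of plasma cells with 1.01 (95% interval 0.53 to 1.5, adjusted p = 0.0351). Cyp2a5 averaged 12.98 ± 0.25 after CuO COOH, 12.88 ± 0.67 in the controls and 11.2 ± 0.58 after CuO.

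Mitotic genes were not called between CuO COOH and core CuO, 0 of 27 by limma (6 at an unadjusted p below 0.05), with a list median of -0.26 and all 27 below 0. Mki67 differed by -0.31 (95% interval -0.67 to 0.06, adjusted p = 0.542), an interval that does not show that the materials act alike. Against CuO PEG the same list had 2 of 27 called higher and a median of 0.77. Mki67 averaged 10.4 ± 0.14 after CuO COOH and 9.09 ± 0.087 after CuO PEG, and differed by 1.32 (95% interval 0.84 to 1.79, adjusted p = 0.00935). Top2a differed by 1.14 (95% interval 0.68 to 1.6, adjusted p = 0.0277) and Lcn2 by 2.12 (95% interval 1.28 to 2.96, adjusted p = 0.0252), the largest of the 8. Kif23, Mcm10, Uhrf1 and Pigr, named after their values were seen, were also called higher. Prdm8 was lower, with -1.14 (95% interval -1.57 to -0.71, adjusted p = 0.0164). The count was 0 without exposed replicate 1 (1295 at an unadjusted p below 0.05) and 0 without CuO PEG replicate 3 (1211), 4 without CuO PEG replicate 2 and 18 without exposed replicate 2.

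Against CuO NH3 the intervals were wide. Saa3 averaged 13.02 ± 1.21 after CuO COOH and 15.43 ± 0.51 after CuO NH3, and the difference was -2.4 (95% interval -4.01 to -0.80, adjusted p = 0.996). Mki67 differed by -0.16 (95% interval -0.66 to 0.33, adjusted p = 0.996) and Hmox1 by 0.01 (95% interval -0.99 to 1.01, adjusted p = 1).

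**Figure D5:**
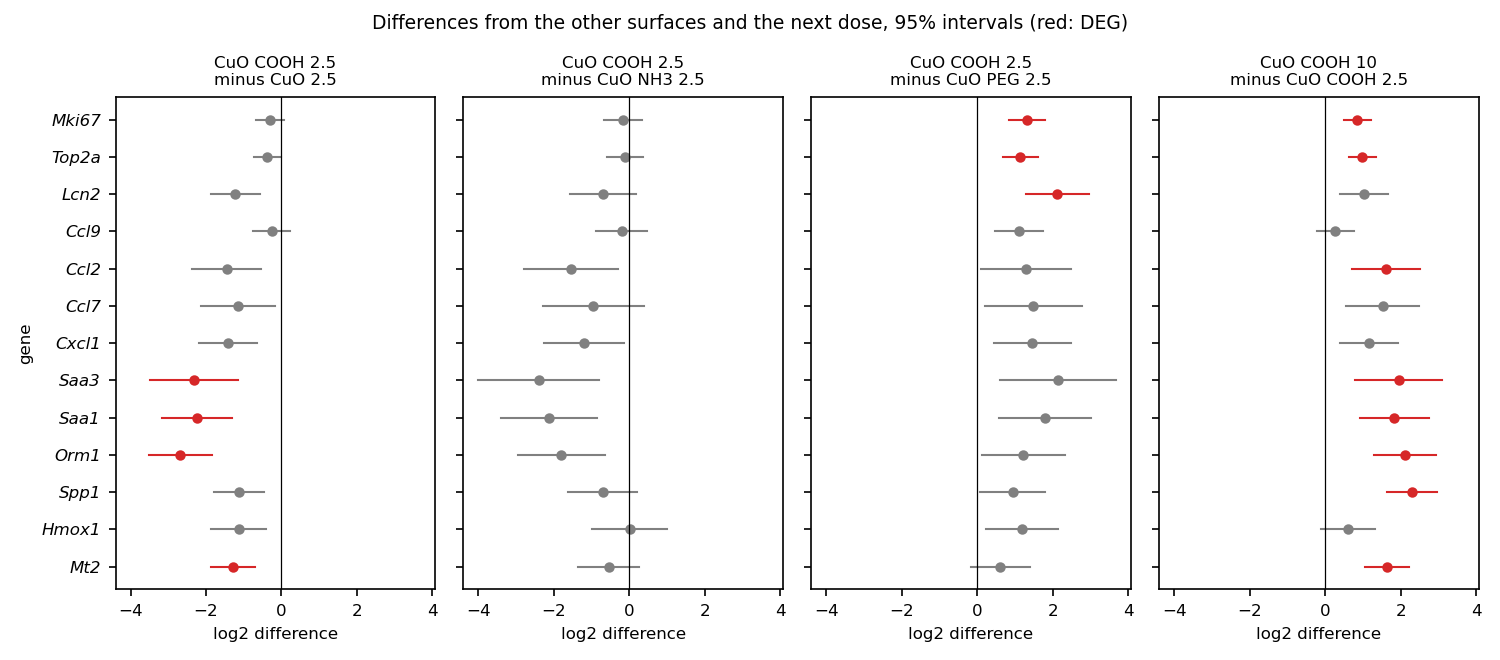
Log2 differences with 95% intervals for 13 genes between CuO COOH 2.5 and core CuO, CuO NH3 or CuO PEG at the same dose, and between CuO COOH 10 and 2.5 μg/mouse, in red where the gene was called. Saa1, Saa3, Orm1 and Mt2 are called lower than after core CuO and higher again at 10 μg/mouse, whereas Mki67, Top2a and Lcn2 are called higher than after CuO PEG.

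With slide terms, 22 of the 27 mitotic genes and part of the acute phase genes stood higher at the next dose of CuO COOH. Between 10 and 2.5 μg/mouse, which lay on the same slides, 304 genes were called with slide terms (1.33%), 235 higher at 10 (1.03%) and 69 lower (0.301%). Without CuO COOH 10 replicate 1 there were 127 and without CuO COOH 2.5 replicate 2 there were 129. With array terms, the terms used against the controls, 13 genes were called, 6 of them among the 304, and 6 of the 304 changed sign, while loess normalisation gave 135. With slide terms 22 of the 27 mitotic genes were higher at 10, with a list median of 0.76. Mki67 averaged 9.12 ± 0.32 in controls, 10.4 ± 0.14 at 2.5, 11.26 ± 0.12 at 10 and 11.83 ± 0.20 at 40 μg/mouse (SD, n = 7, 3, 3 and 3), and the step from 2.5 to 10 was 0.85 (95% interval 0.49 to 1.21, adjusted p = 0.00247). Ccl9 averaged 11.16 ± 0.14 at 2.5 and 11.43 ± 0.27 at 10, a step of 0.27 (95% interval -0.21 to 0.75, adjusted p = 0.684), so that these levels did not differ beyond their spread.

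Spp1 had the largest step upward among the DEGs between these doses, 2.3 (95% interval 1.65 to 2.95, adjusted p = 6.64e-06), from 11.32 ± 0.47 to 13.62 ± 0.24. Orm1 rose by 2.12 (95% interval 1.29 to 2.94, adjusted p = 0.00106) and Timp1, the inhibitor of metalloproteinases, by 2.04 (95% interval 1.24 to 2.85, adjusted p = 0.00127). Of the acute phase list 8 of 18 were higher at 10. Mt2, which overlapped the controls at 2.5, was 13.59 ± 0.053 at 10 against 11.96 ± 0.076, a step of 1.63 (95% interval 1.04 to 2.22, adjusted p = 0.000486). Lower at 10 were the erythroid genes Alas2, with -1.69 (95% interval -2.25 to -1.14, adjusted p = 9.04e-05), and Hbb-bt, with -1.54, and Igfbp3, the carrier of insulin-like growth factors, with -1.5 (95% interval -1.9 to -1.11, adjusted p = 2.02e-06). Clca1 ran the other way without passing the test: it averaged 12.03 ± 1.42 at 2.5, 10.22 ± 1.41 at 10 and 7.52 ± 0.21 at 40, and the step was -1.81 (95% interval -3.75 to 0.12, adjusted p = 0.37).

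Each dose can also be set against the 7 controls with array terms, which all these comparisons share. All 27 mitotic genes were DEGs at 10 and at 40 μg/mouse, where 2.53% and 6.05% of all genes were called higher, and 1.06% and 4.25% lower. Mki67 had log2 fold changes of 1.71, 2.37 and 2.94 at 2.5, 10 and 40, Ccl2 of 3.54, 4.54 and 4.67, and Saa3 of 4.31, 5.82 and 5.53. Ccl2 thus gained less from 10 to 40 than from 2.5 to 10, and the value of Saa3 was lower at 40 than at 10 in this fit. Its levels with dye, slide and position effects removed had the other order, with means of 14.96 at 10 and 15.14 at 40. The step from 10 to 40 was not tested. With the other surfaces at 2.5, Mki67 had 1.52 after CuO, 1.55 after CuO NH3 and -0.41 after CuO PEG, and 0.825%, 0.86% and 0% of genes were called higher (for CuO PEG, 1002 genes stood at an unadjusted p below 0.05 in limma). With slide terms these values were 1.28 for CuO COOH, 1.59 for CuO, 1.45 for CuO NH3 and -0.03 for CuO PEG, so that the order of the first 3 changed with the terms.

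The same dose was also given to mice challenged with OVA. Mki67 averaged 11.44 ± 0.24 in the 8 OVA-challenged controls and 11.65 ± 0.02 with CuO COOH 2.5, and its log2 fold change there was 0.59. The difference between this effect and that in PBS-challenged mice was -1.12 (95% interval -1.79 to -0.44, adjusted p = 1). Saa3 averaged 13.96 ± 0.55 and 15.36 ± 0.45 after OVA, and the difference of effects was -2.5 (95% interval -5.09 to 0.10, adjusted p = 1). Hmox1 had a log2 fold change of 3.23 (adjusted p = 1.33e-05) in the OVA-challenged mice with array terms but of 0.73 (adjusted p = 0.566) with slide terms, and its levels averaged 12.19 ± 0.41 against 11.46 ± 0.35 in their controls. OVA CuO COOH 2.5 replicate 1 shared its array with PBS control 1, whose Hmox1 level was 8.04, and the part of this in the value was not tested. With array terms the difference of effects was 0.67 (95% interval -0.33 to 1.67, adjusted p = 1). Against the OVA-challenged controls 0.0175% of all genes were called higher. Of 22911 genes 1 differed between the challenges, Pigt, a subunit of the GPI transamidase, with -2.81 (95% interval -3.68 to -1.94, adjusted p = 0.0187). PBS control 1 read 12.21 for Pigt where the other PBS controls had 9.92 to 10.84. Limma called 0 genes without that control (536 at an unadjusted p below 0.05), and also 0 without PBS control 2 or 3, OVA control 3, exposed replicate 1 or OVA CuO COOH 2.5 replicate 1, and 2 without exposed replicate 3. With slide terms the difference of Pigt was 0.23.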

How the data were processed

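The authors deposited scanner output of Agilent Feature Extraction (version 12.0.2.2 in the file headers) with unnormalised median spot intensity per channel. They also deposited log2 values after normalisation, which gave the same calls here. The authors' methods name log2 transformation, quantile normalisation, removal of dye and array effects and limma.

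Median foreground intensities of the 89 samples (46 arrays, 6 slides) were log2 transformed with no background step and then quantile normalised. The 3671 control spots of 62976 were left out, and 32994 probes with a gene in RefSeq (GRCm38.p6) were averaged to 22911 genes, while 23611 probes had none. One limma 3.58.1 fit (R 4.3.3, with data.table at 1.17.8) held all 26 groups, with dye and array or dye, slide and array position as fixed terms. P-values were adjusted by Benjamini-Hochberg over all genes. Python 3.11.15 and matplotlib 3.10.9 drew the plots. Fits were tested on simulated data. The number of arrays limits the precision.

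Named genes were the 12 largest rises and falls among DEGs, every DEG of the lists, up to 4 members of a described list, Ccl2, Ccl7, Saa3, Mt1 and Mt2, and the 3 largest rises and falls of each other comparison. Any other gene named was chosen after its values were seen. The members and lists were chosen with earlier results of these data known. Alternatives covered background correction, loess, dim probes, batch terms, replicate blocks, control choice and each sample left out. Some results are not reported here.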

Additional observations from a re-analysis of the deposited data

Results flagged for a closer look

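Single PBS controls stood apart from the other 6 in 13 of 187 named genes tested and in 3 gene lists, where chance alone gives about 1 in 20 groups. Control 4 was high for Cxcl3 (6.42), Mt2 (12.07) and Saa1 (9.35) and for the mean of the neutrophil chemokines and growth factors (6.93), and low for Hopx (14.16). Control 1 was low for Hmox1 (8.04). Control 3 was high for Pllp (10.84), Ttr (7.36) and the liver list (7.22). Control 6 read 7.79 for Apoa2, 7.40 for Cd209a, 5.89 for Ckm, 9.51 for Muc5b, 11.23 for Myl7 and 12.76 for Scgb3a1, and its heart and striated muscle list had a mean of 8.08. The part of these controls in the comparison was measured by leaving each out, and Hmox1 kept a log2 fold change of 2.38 (adjusted p = 0.00745) without control 1. Without control 3, 13 genes were called and 0 of them lower, so Pllp lost its call.

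The effect of CuO COOH 2.5 on Pigt differed between OVA- and PBS-challenged mice by -2.81 on the log2 scale, by the interaction test with array terms. PBS control 1 read 12.21 for Pigt where the other PBS controls had 9.92 to 10.84, and the call was lost without it. The sign was the opposite with slide terms (0.23), the array as a random block (0.0226) and the replicate block (0.31).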

How the results depend on the processing

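The count against PBS controls, 82, became 311 (array as random block), 129 with slide and dye fixed beside it, 263 and 127 without exposed replicate 2 (random block and slide terms), 25 with the controls of the same slides and 0 with 3 pairs in slide blocks (2026 genes at an unadjusted p below 0.05 in limma). Normexp (72), loess (115), dim probes left out (85), slide terms (93) and no fold threshold (82) stayed within 1.5 times. Leaving out 1 sample gave 0 to 131, with 0 without exposed replicate 1, 2 without replicate 3, 13 without control 3 and 131 without control 1. Against core CuO, 48 became 3 (loess), 9 (random block) and 0 (array terms, 1108 at an unadjusted p below 0.05), and 2 to 40 with 1 sample out. The random block fit held dye but no slide term unless slide is named. Against CuO NH3, 0 became 1021 (random block) and 2 (with slide and dye fixed), and 0 to 0 with 1 sample out. Against CuO PEG, 9 became 21 (loess), 1132 (random block), 128 (array terms) and 51 (slide and dye fixed), and 0 to 18. For CuO COOH 10 against 2.5, 304 became 135 (loess) and 13 (array terms), and 127 to 336. The challenge difference, 1, became 3 (random block), 0 (slide terms, 1387 at an unadjusted p below 0.05), 0 (same-slide controls, 463) and 20 (slide and dye fixed), and 0 to 2. The settings with slide and dye fixed beside the random block, and those without exposed replicate 2, were chosen after seeing the data. The cause of these changes was not tested.

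No gene named for the comparison with PBS controls reversed its sign between 2 fits of which at least 1 called it. Of the values, 3968 kept their side of the threshold, 245 lost it and 83 gained it. Sign changes of genes called in neither fit were not counted as reversals and lie among the 3968. Pigt reversed to 0.0226 (random block), 0.23 (slide terms), 0.31 (replicate block) and 0.24 (slide and dye fixed).

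Replicate numbers were shared by both groups, but samples of one number deviated together with correlations of 0.04, 0.04 and 0.14 only, so they were not taken as paired. With the replicate number as a block the counts were 101 against PBS controls, 30 against core CuO, 1094 against CuO NH3, 1215 against CuO PEG, 292 between doses and 3 for the challenge difference. That fit held no slide term.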

Other observations

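The heat shock list averaged 12.4, 12.4 and 11.76 in the exposed samples and 11.33 to 11.75 in the controls, so that all exposed samples lay above the controls, replicate 3 by less than the spread between controls. Of 11 heat shock genes 0 were called by limma with array terms (2 at an unadjusted p below 0.05) or slide terms and 5 with the array as a random block (list median 0.53 with array terms and 0.55 with slide terms). Against CuO PEG all 11 were above 0 (median 0.78, 11 at an unadjusted p below 0.05), with 0 called by limma. Hspa1a, the inducible chaperone, which is close in sequence to Hspa1b, read 12.42, 12.5 and 10.81 in the exposed samples against controls of 9.4 to 11.36 (median 9.83), so that replicates 1 and 2 lay above all controls and replicate 3 did not. Of 18 interferon response genes 0 were called by limma in the 3 fits (0 at an unadjusted p below 0.05 with array terms, list median 0.61, and 0.13 with slide terms). Of 16 circadian clock genes 0 were called by limma in the 3 fits (2 at an unadjusted p below 0.05 with array terms), with Nr1d1 at -0.63 (adjusted p = 0.995) and Dbp at -0.65 (adjusted p = 0.965).

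The eosinophil-associated ribonucleases, which resident macrophages of the mouse lung also express, tended to lower levels without passing the test. Of 4 measured, 0 were called by limma in the 3 fits (0 at an unadjusted p below 0.05 with array terms) and the list median was -0.47. Ear1 read 11.23, 11.46 and 11.48 against 11.61 to 12.12 (median 11.94), and Ear2 read 13.15, 13.3 and 13.37 against 13.55 to 14.07 (median 13.95), so that the exposed samples of both genes lay below all controls. These near-identical copies may share probes' signal. Of 5 eosinophil markers 0 were called by limma in the 3 fits (0 at an unadjusted p below 0.05 with array terms).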
